A study of Caenorhabditis elegans with 4 samples.

Results

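The genes described here encode potassium channels (*twk*, *kvs* and *kqt*), ligand-gated ion channels (*lgc*, *acr* and *glr*) and channels of the DEG/ENaC family (*del*) of *C. elegans*. They were chosen by gene name and by a sum of at least 10 counts over 4 RNA-seq libraries of dissected adult gonads. Of the 111 rows of the deposited table that carry such a name, 105 passed this minimum, out of 15286 genes in all. The sum takes no account of strain, but a gene can reach it through 1 strain alone. The mutant libraries alone reached 10 counts for 14 of the 105 genes and the wild-type libraries alone for 17, while 71 passed in either strain and 3 only in both strains together. The names comprise 36 *twk*, 4 *kvs*, 2 *kqt*, 30 *lgc*, 18 *acr*, 8 *glr* and 7 *del* genes.

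Wild-type worms were of strain N2 and mutant worms of strain FAS58, which carries his-72(uge40[K27M]) III. This allele places the K27M substitution in *his-72*, one of the genes for histone H3.3, at its own locus by genome editing, so the mutant histone is made in all tissues that use *his-72*. Other genes also encode H3.3. Both strains were grown at 25 °C, and 2 biological replicates were sequenced per strain. The titles of the mutant samples carry another strain number, FAS43, whereas their strain and genotype fields and the column names of the table give FAS58. The labels do not say how many animals were pooled.

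H3K27me3 is laid down by the Polycomb Repressive Complex PRC2 and marks repressed genes. In worm germ cells it covers most of chromosome X, which is largely silent there. Channel genes belong to the differentiated soma. Tandem-pore-domain (*twk*) channels carry the background potassium current that sets the resting membrane potential, while voltage-gated (*kvs*) and KCNQ-type (*kqt*) channels repolarise excitable cells. The *lgc* and *acr* genes encode subunits of Cys-loop receptors opened by transmitters such as acetylcholine, GABA and monoamines, *glr* genes encode subunits of AMPA- and kainate-type glutamate receptors, and DEG/ENaC subunits form sodium channels used in touch and proprioception. Neurons and muscles are the main sites where these proteins are known to act.

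Total counts ran from 28298609 to 32957429 per library. Levels are given as CPM (counts scaled to a common library size after TMM normalization), and 3 counts in a library were taken as the limit of detection, or floor (0.0919 to 0.105 CPM), which covers counting error only. *his-72* itself was counted 1881 and 2346 times in N2 gonads and 1644 and 1917 times in mutant gonads, and counts per gene do not show the substitution. The 17 germline and oocyte markers, which should be high in gonads, were detected in every library and summed to between 17411 and 26023 CPM. Libraries differed in how many genes they detected, with at least 1 count for 14726 and 14631 genes in the wild-type replicates 1 and 2, and for 13116 and 14553 in the mutant replicates 1 and 2. As these are bulk samples, a change in the number of cells of a type and a change in RNA per cell cannot be told apart.

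In wild-type gonads the channel genes were close to silent. Their median level was 0.538 CPM, against 1.95 CPM over all 15261 genes tested and 2.31 CPM over those with at least 10 counts. Of the 105, 24 exceeded 1 CPM. The highest by mean was *twk-5*, with 3.24 and 3.87 CPM in the replicates, and 0 genes exceeded 5 CPM. In H3.3K27M mutant gonads 40 genes exceeded 1 CPM and 13 exceeded 5 CPM, and *twk-31* was the highest with 21.01 and 37.8 CPM. The median channel gene changed little, to 0.594 CPM. In the mutant the median was 2.64 CPM over all genes tested and 3.11 CPM over those with at least 10 counts. By library, 29 and 25 channel genes exceeded 1 CPM in the wild-type replicates and 32 and 44 in the mutant replicates. Of all genes tested, 8710 and 8774 did so in the wild-type replicates and 8748 and 9559 in the mutant replicates. Summed over the 105 genes, the level was 78.7 and 76.1 CPM in the wild-type replicates and 180 and 316 CPM in the mutant replicates. The 11 genes called higher by the test described next supplied 18.8% and 13.7% of this sum in N2 gonads, as against 59.1% and 50.4% in mutant gonads. They were picked for being higher in the mutant in these same libraries, which by itself raises their mutant share.

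A gene counted as called where it differed by more than 2-fold with an adjusted *p* below 0.05, over the whole table (edgeR's quasi-likelihood test, adjusted after Benjamini-Hochberg). Of the 105 channel genes, 11 were called higher in the mutant, or 10.5%, where 4.43% of all genes tested and 4.58% of those with at least 10 counts were called higher. These are *twk-2*, *twk-6*, *twk-31*, *kvs-4*, *lgc-9*, *lgc-20*, *lgc-22*, *lgc-38*, *acr-18*, *glr-5* and *del-3*. None was called lower with edgeR, where 1.46% and 1.51% of these were. At an unadjusted *p* under 0.05, 26 channel genes were higher and 11 were lower, against 12.3% and 12.4% of all genes (12.7% and 12.4% of those with at least 10 counts). In 43 channel genes, or 40.95%, both mutant libraries lay above both wild-type libraries, against 24.1% of all genes (24.9% with at least 10 counts), and in 24, or 22.9%, both lay below, against 32.7% (32.6%). The counts are a description, since the minimum of 10 counts was taken over the same libraries. DESeq2 called 18 channel genes higher (8.05% of all genes) and 0 lower (3.42%), and edgeR's exact test called 17 (6.85%) and 0 (3.09%), while a fit with the replicate number as a block called 7 (2.44%) and 0 (0.596%). The calls need all 4 libraries. With any 1 of wild-type replicate 1, wild-type replicate 2, mutant replicate 1 or mutant replicate 2 left out, 0 channel genes were called higher, and 5, 0, 0 and 101 of all genes were. Without wild-type replicate 1 this is 0.0329% of all genes higher, with 0.0526% lower, and without mutant replicate 2 it is 0.664% higher, with 0.112% lower. The lowest log2 fold change of the 11 genes in these fits was 1.73, for *glr-5* without mutant replicate 2.

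**Figure D1:**
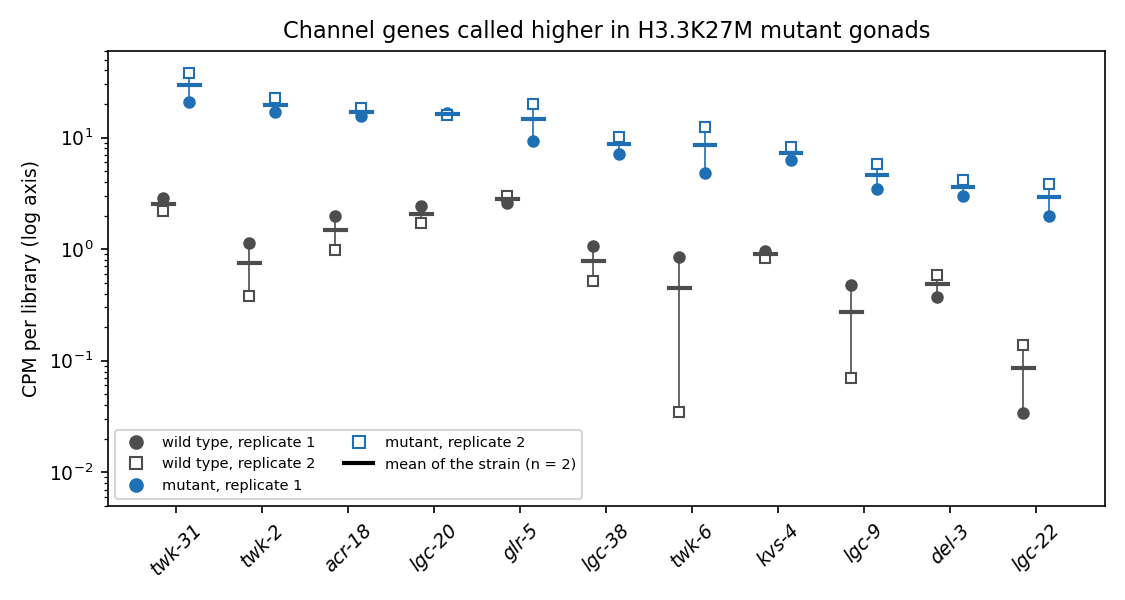
Level of each of the 11 channel genes called higher in H3.3K27M mutant gonads, in CPM on a log axis, with 1 point per library (filled circle, replicate 1; open square, replicate 2) and a bar at the mean of each strain (n = 2). The 2 mutant libraries lie above the 2 wild-type libraries for every gene shown, and the wild-type replicates are widest apart for *twk-6* (0.853 and 0.0349 CPM).

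Potassium channels. Of the 42 potassium channel genes, 4 were called higher, or 9.52%, where 4.43% of all genes tested were, and 38 were not called. Their median log2 fold change was 0.14 against -0.11 for all genes tested. *twk-31* encodes a tandem-pore potassium channel subunit (chromosome III, 11410678 to 11424661, plus strand, WBcel235). It was counted 84 and 63 times in N2 gonads and 686 and 1202 times in mutant gonads, or 2.53 ± 0.475 CPM and 29.4 ± 11.9 CPM (SD, n = 2 each). Both mutant libraries lay well above both wild-type libraries, and the log2 fold change was 3.53 (standard error, SE, 0.40, adjusted *p* = 0.00766, edgeR's quasi-likelihood test).

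*twk-2*, another tandem-pore subunit gene (chromosome II, 4441103 to 4453151, minus strand), rose most clearly of all channel genes by *p*-value. It was counted 33 and 11 times in N2 gonads and 552 and 719 times in mutant gonads, from 0.755 ± 0.525 to 19.8 ± 4.06 CPM (SD, n = 2 each). The log2 change from N2 was 4.70 (SE 0.45, adjusted *p* = 0.00498, edgeR). *twk-6* (chromosome III, 4742920 to 4744719, plus strand) was counted 25 and 1 times in N2 gonads and 158 and 394 times in mutant gonads. The spread between its wild-type replicates was as large as the wild-type level itself, at 0.444 ± 0.579 CPM (SD, n = 2). Its log2 change of 4.25 (SE 0.88, adjusted *p* = 0.0459, edgeR) lay between 3.33 and 7.83 with 1 library left out, the lowest without wild-type replicate 2 and the highest without wild-type replicate 1. Its adjusted *p* ranged from 0.00016 to 0.0729 over 6 other fits of all 4 libraries (edgeR and DESeq2).

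*kvs-4* encodes a voltage-gated potassium channel subunit (chromosome III, 11012564 to 11025293, plus strand). It was counted 28 and 24 times in N2 gonads and 207 and 260 times in mutant gonads. The replicates of both strains were close, at 0.896 ± 0.0842 and 7.26 ± 1.31 CPM (SD, n = 2 each), and the log2 fold change was 3.01 (SE 0.44, adjusted *p* = 0.0164, edgeR). Its exons share 55 bases with Y48A6B.7 on the opposite strand, a gene at 0.450 CPM in N2 and 0.681 CPM in mutant gonads.

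The KCNQ-type genes were not called. *kqt-3* was counted 26 and 13 times in N2 gonads and 45 and 40 times in mutant gonads, for a log2 difference of 0.97 (SE 0.67, adjusted *p* = 0.408, edgeR). *kqt-1*, on chromosome X, was counted 20 and 23 times in N2 gonads and 0 and 39 times in mutant gonads, so that the mutant replicates lay on either side of wild type. *kvs-1*, the *C. elegans* channel known to assemble with MinK-related MPS subunits, is also X-linked and was counted 10 and 9 times in N2 gonads and 3 and 0 times in mutant gonads (adjusted *p* = 0.241, edgeR). *kqt-1* and *kvs-1* were chosen after their values were seen.

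Ligand-gated channels of the Cys-loop family. Of the 48 *lgc* and *acr* genes, 5 were called higher. These are 4 of 30 *lgc* genes (13.3%) and 1 of 18 *acr* genes (5.56%), where 4.43% of all genes tested were called higher. *acr-18* belongs to the nicotinic acetylcholine receptor subunit family (chromosome V, 15551157 to 15559147, minus strand). It was counted 58 and 28 times in N2 gonads and 514 and 581 times in mutant gonads, a rise from 1.48 ± 0.710 to 17.02 ± 1.81 CPM (SD, n = 2 each). The log2 fold change was 3.52 (SE 0.37, adjusted *p* = 0.0064, edgeR). It was the only 1 of the 18 *acr* genes that was called. *acr-11* was counted 25 and 19 times in N2 gonads and 88 and 121 times in mutant gonads but an adjusted *p* of 0.0940 (edgeR), and *acr-16*, whose product forms the nicotine-sensitive receptor of body wall muscle, had 43 and 31 against 43 and 85. Both were chosen after their values were seen.

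*lgc-20* (chromosome II, 11340061 to 11343610, minus strand) had the closest mutant replicates of the called genes. It was counted 72 and 49 times in N2 gonads and 539 and 504 times in mutant gonads, or 2.08 ± 0.530 and 16.2 ± 0.450 CPM (SD, n = 2 each), and a log2 fold change of 2.95 (SE 0.31, adjusted *p* = 0.00614, edgeR). *lgc-38*, a relative of GABA receptor subunit genes (chromosome III, 7009136 to 7019584, plus strand), was counted 31 and 15 times in N2 gonads and 235 and 324 times in mutant gonads. The log2 change from N2 was 3.45 (SE 0.49, adjusted *p* = 0.0150, edgeR). The collagen gene *col-8*, on the opposite strand, shares 2 exon bases with *lgc-38*. Its level was 1.22 CPM in N2 and 11.8 CPM in mutant gonads, and its part in the counts of *lgc-38* was not tested.

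*lgc-9* and *lgc-22*, both on chromosome IV, started from the lowest wild-type levels among the called genes. *lgc-9* (3415683 to 3419234, plus strand) was counted 14 and 2 times in N2 gonads and 113 and 183 times in mutant gonads. The log2 change from N2 was 4.04 (SE 0.77, adjusted *p* = 0.0331, edgeR), and 3.26 without wild-type replicate 2 and 6.0 without wild-type replicate 1. *lgc-22* (4301306 to 4304448, plus strand) was counted 1 and 4 times in N2 gonads and 65 and 123 times in mutant gonads, and it alone among the 11 would have reached 10 counts only through the mutant. The log2 change from N2 was 5.02 (SE 0.94, adjusted *p* = 0.0222, edgeR), and 4.39 without wild-type replicate 1 and 6.26 without wild-type replicate 2. The ligands of these receptors are not stated in the sources used here.

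Some *lgc* genes that were not called have known ligands. *lgc-40*, a serotonin-gated chloride channel gene on chromosome X, was the most abundant of the X-linked genes in both strains, with 59 and 77 reads in N2 gonads and 70 and 111 in mutant gonads. *lgc-50*, a serotonin-gated cation channel gene, had at most 9 counts in any library. *lgc-53*, a dopamine-gated chloride channel gene on chromosome X, was counted 31 and 26 times in N2 gonads and 1 and 6 times in mutant gonads, with an adjusted *p* of 0.118 (edgeR). *lgc-35*, a GABA-gated cation channel gene, had 15 and 30 counts against 1 and 15. These 4 genes were chosen after their values were seen.

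Glutamate receptors. Of the 8 *glr* genes 1 was called higher, or 12.5%, where 4.43% of all genes tested were. This gene, *glr-5*, encodes a glutamate receptor subunit outside the NMDA class (chromosome V, 8716495 to 8720516, plus strand). It was counted 76 and 86 times in N2 gonads and 303 and 633 times in mutant gonads, or 2.80 ± 0.285 and 14.6 ± 7.53 CPM (SD, n = 2 each). The mutant replicates were farther apart than the wild-type replicates but did not overlap them, and the log2 fold change was 2.38 (SE 0.46, adjusted *p* = 0.0391, edgeR). Without mutant replicate 2 it was 1.73 and without mutant replicate 1 it was 2.89. *glr-1*, the AMPA-type subunit gene of the command interneurons, was counted 12 and 6 times in N2 gonads and 0 and 26 times in mutant gonads and is named here after its values were seen.

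DEG/ENaC channels. Of the 7 *del* genes 1 was called higher, or 14.3%, where 4.43% of all genes tested were. This gene was *del-3* (chromosome I, 7670155 to 7672714, minus strand). It was counted 11 and 17 times in N2 gonads and 98 and 133 times in mutant gonads, for a log2 difference of 2.88 (SE 0.60, adjusted *p* = 0.0476, edgeR). The call was close to the threshold, and the adjusted *p* ranged from 0.000765 to 0.105 over 6 other fits of all 4 libraries (edgeR and DESeq2). *del-10* had the highest level of the family, with 48 and 96 reads in N2 gonads and 149 and 294 in mutant gonads, and was not called (log2 fold change 1.47, SE 0.53, adjusted *p* = 0.162, edgeR). *del-6*, with 72 and 54 reads in N2 gonads and 25 and 26 in mutant gonads, lay lower in both mutant libraries and was not called either (log2 fold change -1.45, SE 0.57, adjusted *p* = 0.187, edgeR).

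The largest rises outside the called genes rested on few or uneven counts. Where the mean exceeded 1 CPM, the upper end was held by *twk-4*, *twk-29* and *lgc-10*. *twk-4* was counted 1 and 4 times in N2 gonads and 12 and 390 times in mutant gonads, and its log2 fold change of 6.12 (adjusted *p* = 0.116, edgeR) was 2.04 without mutant replicate 2. Of the 3427 exon bases of *twk-4*, 2375 are also exons of *sym-2* on the same strand, itself at 1.01 CPM in N2 and 32.2 CPM in mutant gonads. How reads in the shared exons were counted was not examined. *twk-29* had 9 and 3 counts against 50 and 120 (log2 fold change 3.65, adjusted *p* = 0.0736, edgeR), and *lgc-10* had 6 and 16 against 164 and 73 (log2 fold change 3.26, adjusted *p* = 0.0694, edgeR). At the lower end were *acr-9*, *lgc-33* and *del-6*. *acr-9*, on chromosome X, was counted 92 and 31 times in N2 gonads and 12 and 15 times in mutant gonads (log2 fold change -2.33, adjusted *p* = 0.163, edgeR). *lgc-33* had 51 and 39 against 20 and 15 (log2 fold change -1.51, adjusted *p* = 0.220, edgeR). The wild-type replicates of *lgc-33* and *del-6* were closer than those of *acr-9*. With 1 library left out their log2 fold changes ran from -1.67 to -1.28 for *lgc-33* and from -1.63 to -1.21 for *del-6*.

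Chromosomal position was not used to choose the genes. Of the 105 genes, 78 are autosomal and 27 are on chromosome X. All 11 called genes are autosomal, or 14.1% of the 78, where 4.87% of the autosomal genes with at least 10 counts were called higher and 0.667% lower. At an unadjusted *p* under 0.05, 25 were higher and 3 lower, against 13.8% and 9.76% of such genes. In 40 of the 78, or 51.3%, both mutant libraries lay above both wild-type libraries, against 27.1% of such autosomal genes, and in 10 both lay below, against 29.4%. The median log2 fold change was 1.23 for the autosomal channel genes and -0.03 for the autosomal genes with at least 10 counts. It was 0.56 for the autosomal channel genes without mutant replicate 2, the lowest value with 1 library left out. Chromosomes I to IV had medians of 2.17, 1.47, 1.90 and 1.23 over 8, 17, 14 and 13 channel genes, and chromosome V one of 0.09 over 26.

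Of the 27 X-linked channel genes, 7 had a log2 fold change over 0 and 20 under 0. The 7 are 25.9%, close to the 23.7% of X-linked genes with at least 10 counts. With edgeR 0 were called in either direction, where 2.67% of X-linked genes with at least 10 counts were called higher and 7.25% lower. At an unadjusted *p* under 0.05, 1 was higher and 8 were lower, against 5.81% and 30.6% of those X-linked genes, and DESeq2 and edgeR's exact test called 0. In 14 of the 27, or 51.9%, both mutant libraries lay below both wild-type libraries, close to the 54.9% of X-linked genes with at least 10 counts, and in 3 both lay above, against 9.86%. Their median log2 fold change was -1.14, against -1.03 for those X-linked genes, and it was -2.51 without mutant replicate 2. The difference between linkage groups was not tested, since genes are not replicates.

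**Figure D2:**
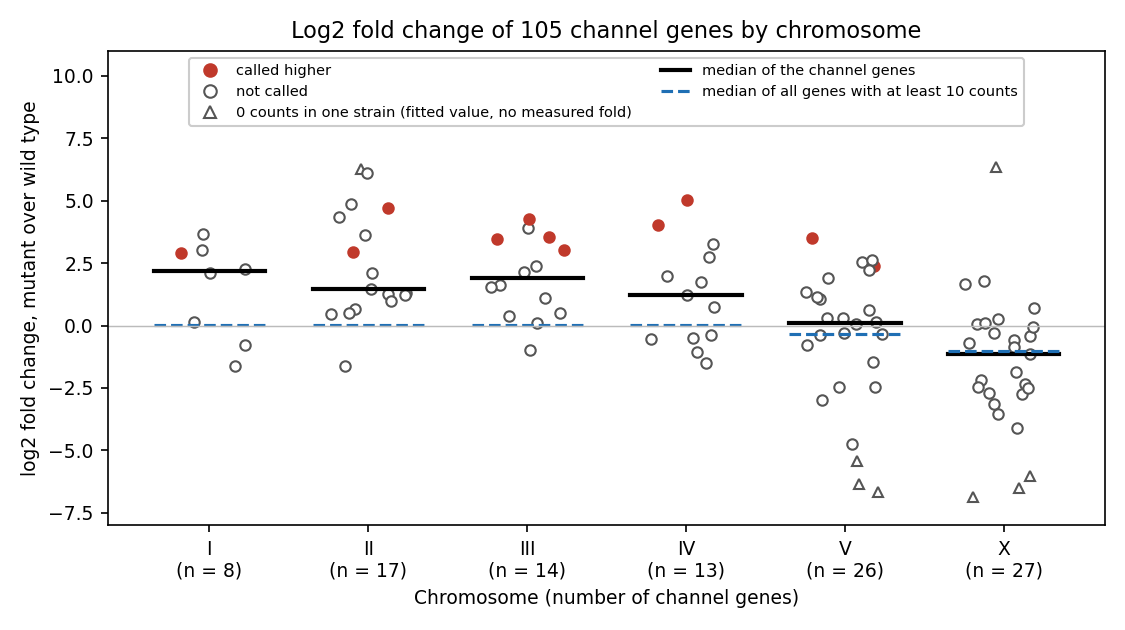
Log2 fold change (mutant over wild type) of each of the 105 channel genes, by chromosome, with genes called higher in red and the 8 genes with 0 counts in both libraries of 1 strain as triangles, whose height is a fitted value and not a measured fold. Black bars are medians of the channel genes and dashed lines are medians of all genes with at least 10 counts on that chromosome. The black bar lies above the dashed line on chromosomes I to IV and close to it on chromosome X (-1.14 and -1.03).

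Of the 8 X-linked potassium channel genes, all had a log2 fold change under 0, and in 6 both mutant libraries lay below both wild-type libraries. Most X-linked genes with at least 10 counts also fell. Of these, 23.7% had a log2 fold change over 0, and in 54.9% both mutant libraries lay below. *twk-18*, whose gain-of-function alleles are known to paralyse the worm through a potassium current in muscle, was counted 19 and 15 times in N2 gonads and 0 and 3 times in mutant gonads (adjusted *p* = 0.151, edgeR). Among the 17 X-linked ligand-gated genes, 7, or 41.2%, had a log2 fold change over 0. *acr-3*, a nicotinic acetylcholine receptor subunit gene, was counted 18 and 17 times in N2 gonads and 0 and 2 times in mutant gonads (adjusted *p* = 0.131, edgeR), while *lgc-25* had 8 and 6 against 21 and 29 (adjusted *p* = 0.258, edgeR). *lgc-14* and *lgc-23*, which lie 44.1 kb apart on chromosome X, were each counted in 1 strain only. *lgc-14* had 8 and 13 counts in wild type and 0 in both mutant libraries, at least 3.90-fold lower in the mutant, and *lgc-23* had 0 in both wild-type libraries and 12 and 9 counts in the mutant, at least 3.14-fold higher (bounds against the mean of a strain's 2 floors). Neither passed the test (adjusted *p* = 0.138 and 0.143, edgeR). Each gene named here for chromosome X was picked with its values in view.

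In all, 8 channel genes had 0 counts in both libraries of 1 strain. *lgc-23* and *lgc-34* were at 0 in wild type, and *del-5*, *lgc-14*, *lgc-36*, *lgc-41*, *twk-42* and *twk-43* were at 0 in the mutant, none of them called. No bound was set for *lgc-36* and *twk-42*, which were above the floor in only 1 wild-type library. With the others at their bounds, the median log2 fold change was 0.49 over all channel genes, 1.23 over the autosomal and -1.14 over the X-linked ones. These are the medians without the bounds. They could not change, since each bound lies on the same side of them as the fitted value.

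The mutant replicates differed mostly in 1 direction, and the wild-type replicates less so. In mutant replicate 1, 21 of the 105 genes had 0 counts, or 20%, against 7, or 6.67%, in each of the other 3 libraries. Genes with at least 10 counts in all also had more zeros there. Of these, 11.9% were at 0 in mutant replicate 1, against 3.15% in mutant replicate 2 and 2.62% and 3.21% in the wild-type replicates. In all, 83 of the 105, or 79.0%, were higher in mutant replicate 2 than in replicate 1, where 56.0% of genes with at least 10 counts were. In wild type 45 of 105 were higher in replicate 2. Of the genes with counts in mutant replicate 1, 8 were more than 10 times higher in mutant replicate 2 and 0 the reverse, among them *kvs-5* (9 and 144 counts), *glr-4* (12 and 145) and *lgc-37* (1 and 53), named after their values were seen. The share of all genes with such a gap was not counted. The called genes were less uneven, and *glr-5* and *twk-6* had the widest gaps among them in the mutant. Over all 105 genes the median log2 fold change was 0.49. It was 0.02 without mutant replicate 2, 0.90 without mutant replicate 1, 0.95 without wild-type replicate 1 and 0.64 without wild-type replicate 2. Over all genes tested the median was -0.11, and -0.19, -0.07, -0.05 and -0.06 in these fits, in the same order.

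**Figure D3:**
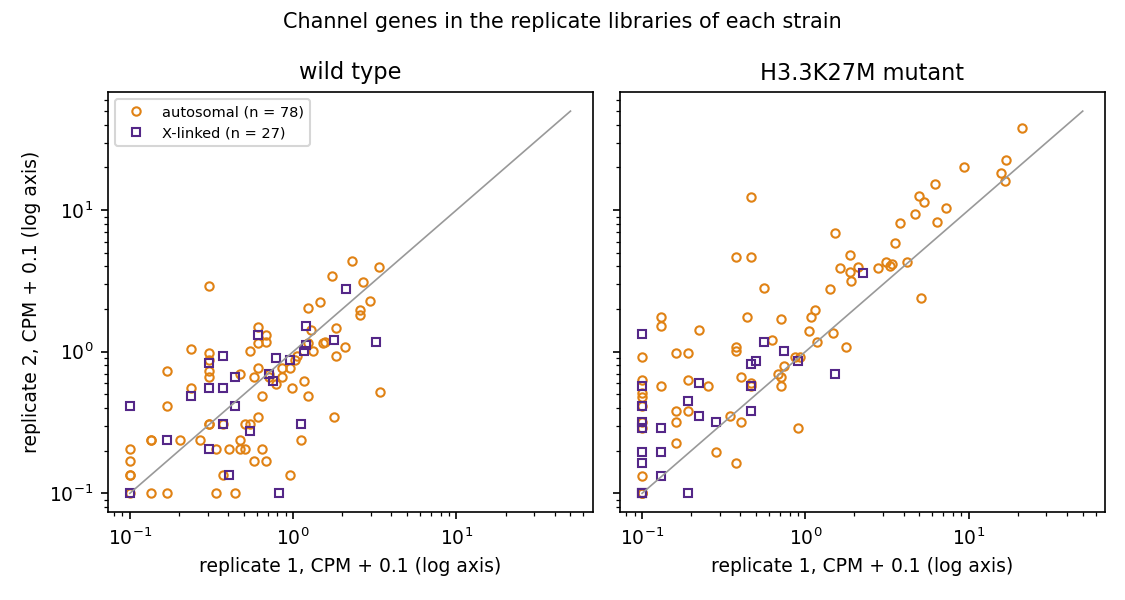
CPM + 0.1 of the 105 channel genes in replicate 2 against replicate 1, for wild type (left) and the H3.3K27M mutant (right), on log axes, with autosomal genes as circles and X-linked genes as squares. The line marks equal levels. In the mutant most points lie above the line and 21 sit at the left edge, with 0 counts in replicate 1.

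To compare levels between genes, CPM were divided by the length of the annotated exons. On this scale *twk-5* led in wild type, at 3.55 CPM per kb, and 3 of the 10 highest channel genes in wild type belong to the called genes. In the mutant 8 of the 10 highest were called genes, a count favoured by their choice for higher mutant levels in the same libraries. *acr-18* rose from 0.915 to 10.5 CPM per kb and was the highest of all 105, *lgc-20* from 1.24 to 9.66, and *twk-2*, whose exons are long, from 0.158 to 4.13. *twk-5* itself was at 8.29 CPM per kb in the mutant without being called, with 95 and 111 reads in N2 gonads and 171 and 362 in mutant gonads (adjusted *p* = 0.175, edgeR). *twk-5* was chosen after its values were seen.

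**Figure D4:**
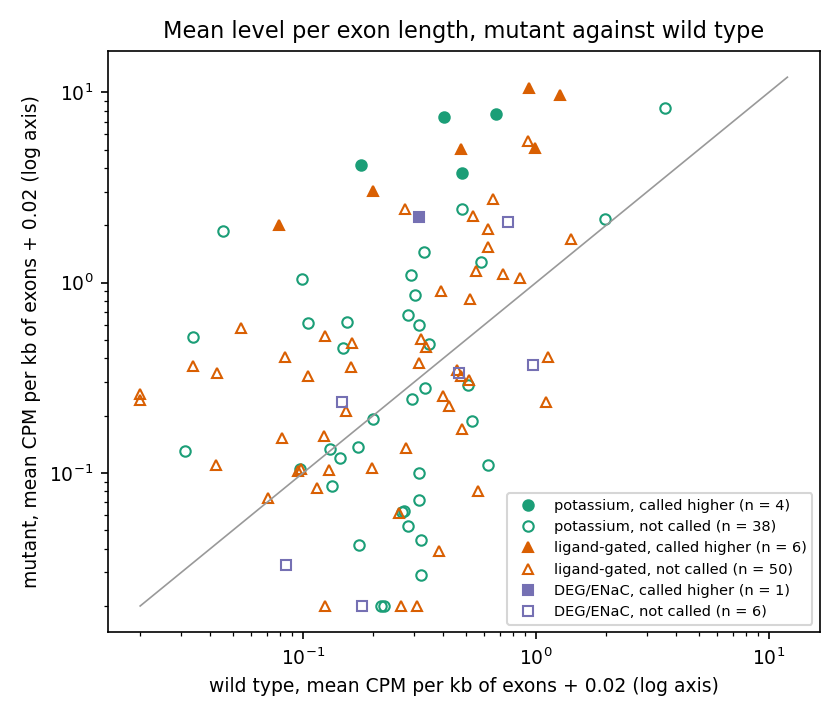
Mean level of the 105 channel genes in CPM per kb of exons + 0.02, mutant against wild type, on log axes, with potassium channels as circles, ligand-gated channels as triangles, DEG/ENaC channels as squares, and called genes filled. The line marks equal levels. All 11 filled symbols are among the 20 highest mutant levels, led by *acr-18* at 10.5 CPM per kb in the mutant, while their wild-type levels fall within the range of the genes not called. The filled genes were picked for higher mutant levels in these same libraries.

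At the minimum of 10 counts, the genes just inside were *lgc-36* with 10 counts in all, *del-1* and *lgc-54* with 11 each, and *twk-47* with 12. Just outside were *lgc-13* with 9, *twk-46* with 8 and *twk-39* with 7. The other 3 names below the minimum, *del-9*, *twk-20* and *lgc-1*, had 5, 4 and 3. *del-1*, a motor neuron DEG/ENaC subunit gene, had 0 and 9 counts in wild type and 1 in each mutant library. All of these are at or near the floor in most libraries.

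Other channel genes and genes for channel-associated proteins were counted in the same way. Of 83 listed, 74 were tested and 6, or 8.11%, were called higher and 0 lower (edgeR), against 4.43% and 1.46% of all genes. At an unadjusted *p* under 0.05, 15 were higher and 6 lower, against 12.3% and 12.4% of all genes, while DESeq2 called 11 higher and edgeR's exact test 9, and both called 0 lower. Of 30 relatives of the ligand-gated channels 4 were called, of 19 DEG/ENaC relatives 2, and of 25 potassium channel relatives 0. *unc-38*, which encodes an alpha subunit of the levamisole receptor of muscle, was counted 105 and 75 times in N2 gonads and 686 and 3520 times in mutant gonads (log2 fold change 4.41, adjusted *p* = 0.0386, edgeR), and 2.76 without mutant replicate 2. *ric-3*, the gene for a chaperone needed to assemble acetylcholine receptors, had 20 and 10 counts against 229 and 348 (log2 fold change 4.11, adjusted *p* = 0.0122, edgeR). *avr-14*, which encodes a glutamate-gated chloride channel subunit targeted by ivermectin, had 32 and 45 against 360 and 397 (log2 fold change 3.14, adjusted *p* = 0.00794, edgeR).

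The remaining 3 called relatives are accessory or atypical proteins. *cup-4*, a ligand-gated channel-like gene needed for endocytosis in coelomocytes, was counted 0 and 6 times in N2 gonads and 78 and 368 times in mutant gonads (adjusted *p* = 0.0410, edgeR). *mec-6* and *unc-24*, genes for a paraoxonase-like and a stomatin-like partner of DEG/ENaC channels, had 72 and 15 against 445 and 995 (adjusted *p* = 0.0254, edgeR) and 31 and 23 against 282 and 263 (adjusted *p* = 0.0108, edgeR). The touch receptor channel genes *mec-4* and *mec-10*, named after their values were seen, were not called and had at most 6 counts in any library. Among the 74 relatives, 16 are X-linked, of which 2 had a log2 fold change over 0, where 23.7% of X-linked genes with at least 10 counts did. The median was -1.39 for these 16 and 1.04 for the other relatives. For genes with at least 10 counts it was -1.03 on chromosome X and -0.03 on the autosomes.

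Markers of other tissues moved as follows. For comparison, 44.0% of all genes tested had a log2 fold change over 0, with a median of -0.11. Of all genes tested 4.43% were called higher and 1.46% lower. Of 20 neuron markers 19 were tested, 1 of which, *unc-13*, was called higher and 0 lower, and their summed level was 68.4 and 68.5 CPM in N2 gonads and 118.6 and 111 CPM in mutant gonads. Of these 19, 15 had a log2 fold change over 0, with a median of 1.11. The largest part of each sum was *snb-1*, at 39.3 and 52.1 CPM in N2 gonads and 37.1 and 34.3 CPM in mutant gonads. *cha-1*, *unc-47*, *eat-4*, *rgef-1* and *tph-1*, which mark transmitter classes or all neurons, were at 0 in at least 1 library. Of the 3 glia markers tested 1, *ptr-10*, was called higher, and their sum was 5.02 and 5.30 CPM in wild type and 25.0 and 37.1 CPM in the mutant. Of the mutant sum *ptr-10* made up 24.01 and 31.4 CPM, while *fig-1* was at 2.25 and 2.20 CPM in N2 gonads and 0 and 1.23 CPM in mutant gonads. The 12 body wall muscle markers summed to 1358 and 739 CPM in wild type and 833 and 1161 CPM in the mutant, with 0 called, and the 17 somatic gonad markers to 468 and 357 against 373 and 452 CPM, with 0 called higher and 1 lower. The 8 hypodermis markers summed to 130 and 130 against 158 and 118 CPM with 0 called, and *col-19* and *dpy-7* were at 0 in at least 1 library. Most of each sum was *lin-26*, at 122.7 and 115.0 CPM in N2 gonads and 134.5 and 115.5 CPM in mutant gonads. Of the 8, 3 had a log2 fold change over 0, with a median of -1.25. The 13 sperm markers summed to 72.2 and 42.5 against 120 and 180 CPM, of which *spe-41* and *fer-1* made up most in the mutant, and *fer-1* was called higher. Of these 13, 6 had a log2 fold change over 0, with a median of -0.15, and *msp-142* and *msp-3* were at 0 in both mutant libraries. The 14 intestine markers summed to 384 and 3472 CPM in wild type and 33.4 and 38.9 CPM in the mutant, with 6 called lower. These 6 are *vit-1* to *vit-6*, which made up most of both wild-type sums. Of the 14 markers, 3 had a log2 fold change over 0, namely *ges-1* (2.54), *elt-2* (1.37) and *fat-2* (1.11), and were not called. The part of these tissues in the channel gene levels was not tested.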

How the data were processed

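Gonads were dissected from adults, and their RNA was sequenced as 50-base reads in 2 libraries per strain. The authors mapped the reads with TopHat 2.0.13 to WBcel235 and deposited unnormalized read counts for each gene. The submitters' processing notes also name HTSeq 0.6.1 and edgeR 3.10.5. The use of strand in counting is not given in the sources used here, although the library kit was stranded. The table also holds the authors' normalized counts, log2 fold changes, average log2 CPM and *p*-values, which were not used. The extraction text of the labels describes embryos and larvae, whereas the methods describe gonads.

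Counts of the 15261 genes with at least 1 count were scaled by TMM. Strain was the sole term of the model, fitted in edgeR 4.0.16 under R 4.3.3 (estimateDisp, then glmQLFit with legacy=FALSE, then glmQLFTest). Standard errors are the absolute log2 fold change over the square root of F. The function was tested on simulated data with planted changes. A call needed an adjusted *p* (Benjamini-Hochberg) below 0.05 and a difference of more than 2-fold. Totals were 28298609 to 32957429 counts per library. Precision is limited by the 2 replicates per strain and, for genes with few counts, by counting error, which were not separated, and the *p*-values refer to the spread between these samples, with dispersion estimates shared across genes. Positions and exon lengths came from Ensembl release 115 of WBcel235. The alternatives were RLE normalization, DESeq2 1.42.0, the legacy quasi-likelihood method, the exact test, filterByExpr, a replicate block, the adjusted *p* alone, a sum of at least 40 counts and leaving out each library.

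The channel genes, the other lists and the rules were chosen with earlier results of these data known. Named genes were every called channel gene, the most abundant of each name family, the 3 highest and 3 lowest log2 fold changes among channel genes not called with a mean of at least 1 CPM, those near the minimum of 10 counts, and called genes of the related lists. Other names are marked as chosen after their values were seen, or are named only as markers. Reads shared between related genes were not examined, and 31 of the 105 channel genes share exon bases with another protein-coding gene. Sequences were not analysed here.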

Additional observations from a re-analysis of the deposited data

How the results depend on the processing

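Channel genes called higher numbered 11, and 18 with DESeq2, 17 with edgeR's exact test, 7 with the replicate block and 0 to 0 with 1 library left out. The other channel genes called higher numbered 6, and 11 with DESeq2, 4 with the replicate block and 0 to 0 with 1 library left out. RLE normalization gave 9 channel genes (4.06% of all genes tested), filterByExpr 10 (5.53%), the legacy method 11 (4.43%) and the adjusted *p* alone 11 (4.48%). RLE lost *del-3* and *twk-6*, filterByExpr lost *del-3*, and the legacy method lost *twk-6* and added *lgc-44*. A sum of at least 40 counts is read off the main fit. It had to keep the 11 called genes, since each has more counts than that. With filterByExpr, which tests 76 of the channel genes, their median log2 fold change was 0.86. None was called lower in any of these fits. DESeq2 kept all 11 and added *acr-11*, *lgc-10*, *lgc-44*, *twk-13*, *twk-29*, *twk-4* and *twk-40*, and the block lost *del-3*, *glr-5*, *kvs-4* and *lgc-9*. Over all genes, DESeq2 called 1228 higher and 522 lower, the exact test 1046 and 472, the block 372 and 91, and fits without 1 library 0 to 101 and 0 to 17, against 676 and 223. The cause of these differences was not tested.

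The replicate numbers do not pair the samples by any label, and deviations of same-numbered libraries from the strain means correlated at r = -0.121 over 9237 genes. A block with crossed numbers, chosen after seeing the data, called 11 channel genes higher (4.19% of all genes), 9 of them among the original 11 and 2 new. With 1 library left out, the log2 fold change of *del-1* ran from -3.15 to 3.13 (-2.18 with all) and that of *twk-39* from -0.13 to 0.80 (0.25 with all), on 11 and 7 counts, and both turned without wild-type replicate 2. In mutant replicate 1, 36 of the 105 channel genes were at or under the floor of 3 counts, as were 2795 of the 14753 genes with at least 10 counts. In fits without 1 library, the lone sample of a strain is assumed to vary like the other strain.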
